A study of Rattus norvegicus with 16 samples.

Results

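Small nucleolar RNAs (snoRNAs) and small Cajal body RNAs (scaRNAs) were described here as 116 genes of the rat transcriptome. They were the genes whose symbol starts with Snora, Snord or Scarna followed by a digit and whose mean reached 1 FPKM (fragments scaled by gene length and by library size) in at least 1 of 3 organs. Of 45777 genes in the tables, 171 had such a symbol, and 116 of those reached the level: 69 of 95 Snord genes, 34 of 52 Snora genes and 13 of 24 Scarna genes. Members were therefore chosen by symbol and by mean FPKM per organ, so that a gene high in 1 organ alone could enter, and levels by organ are given as a description without a test. Just inside the limit were Snora3A with a highest organ mean of 1.014 FPKM, Snord57 with 1.043 FPKM and Snord13 with 1.050 FPKM. Just outside it were Snord67 with 0.931 FPKM, Scarna15 with 0.862 FPKM and Snord121b with 0.793 FPKM.

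Box C/D snoRNAs (Snord genes) pair with ribosomal RNA and guide ribose methylation, and box H/ACA snoRNAs (Snora genes) guide the change of uridine to pseudouridine. ScaRNAs guide the same changes in the small nuclear RNAs of the spliceosome and gather in Cajal bodies, small structures of the nucleus. Most are cut out of the introns of longer host genes and end without a poly(A) tail.

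The study gave male Sprague-Dawley rats, labelled wildtype, benzalkonium chloride (BKC), a quaternary ammonium disinfectant, by intratracheal instillation. Instillations of vehicle, 50 µg or 100 µg per rat were given 10 times, every 3 days from 7 weeks of age, and the rats were killed on day 31, which was 24 h past the final dose. RNA came from the paired adrenal glands of an animal pooled, from a piece of heart cut in the left ventricle, and from pancreas; the library kit was a stranded one for mRNA. The adrenal gland had 2 libraries each for vehicle, 50 µg and 100 µg, the heart had 2 for vehicle, 2 for 50 µg and 1 usable for 100 µg, and the pancreas had 2 for 100 µg and 2 for vehicle.

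Several features of the libraries bear on every value below. The second 100 µg heart column was identical to the second 100 µg adrenal column in 45777 of 45777 genes and was left out, so that 15 of 16 libraries were used. The other 100 µg heart library carried 17727 FPKM of Nppa and 7906 FPKM of Myl7, markers of atrial muscle, and 41.9 FPKM of Myl2, the ventricular light chain; the other 4 hearts carried 42.9 to 212 FPKM of Nppa, 1.74 to 3.95 FPKM of Myl7 and 11675 to 18061 FPKM of Myl2. Adrenal libraries carried 2353 to 8811 FPKM of Star, a cortical marker, and 24.9 to 58.9 FPKM of Th, a medullary one, and pancreas libraries carried 12998 to 20734 FPKM of Prss1, an acinar one. Library names in the labels followed 2 styles whose meaning is not stated. Names of 9 libraries began with VEH, B50 or B100 (second style) and names of 6 began with V- or B- (first style). In the adrenal gland both 100 µg libraries had the second style and all vehicle and 50 µg libraries the first, so dose and naming style cannot be told apart there. In the heart, replicate 2 of vehicle and of 50 µg had the second style and replicate 1 the first, and in the pancreas all 4 had the second. Summed FPKM was 391123 to 399629 in the 100 µg adrenal libraries and 689355 to 1004889 in the other adrenal libraries.

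Members were most abundant in the adrenal gland. Mean FPKM reached 1 for 112 members in the adrenal gland, 77 in the heart and 54 in the pancreas. Of all genes, 12578, 12099 and 5610 reached it in these organs, so the pancreas was lowest for the whole table too. It was reached by 46 members in all 3 organs, by 32 in the adrenal gland only, 1 in the heart only and 2 in the pancreas only. The adrenal mean was the highest of the 3 organ means for 100 of 116 members, the heart mean for 4 and the pancreas mean for 12. Over second-style libraries alone these counts were 98, 7 and 11. The organ with the highest mean was not counted over all genes, so the lead is not shown to be particular to the members. The lead of the adrenal gland in number of members was there in all classes, at 63 of 69 Snord, 26 of 34 Snora and 11 of 13 Scarna genes. The tissues are mixtures, and fewer cells of a type and less RNA per cell cannot be told apart.

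ScaRNAs had the highest levels per gene. Over all 15 libraries, Scarna7 averaged 623 FPKM, Scarna10 280 FPKM, Scarna13 193 FPKM and Scarna2 192 FPKM. Scarna7 and Scarna2 are, in human, box C/D guides, and SCARNA10 is a guide that carries both box C/D and box H/ACA parts. Among H/ACA genes the highest means were 178 FPKM for Snora74a, known in human as U19, 59.9 FPKM for Snora73bl1, a relative of the pre-rRNA cleavage factor U17, 52.0 FPKM for Snora12 and 37.4 FPKM for Snora53. C/D genes were led by Snord97 with 142 FPKM, a guide that in human methylates a methionine tRNA. After it came Snord113l3 with 34.3 FPKM, Snord15b with 19.0 FPKM and Snord78, in the non-coding host gene Gas5, with 16.7 FPKM. These genes are short, and FPKM divides by length.

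Summed over the 69 C/D genes, FPKM was 798 and 980 in the second-style adrenal libraries, against 422 to 588 in the first-style ones. In the heart the same sum was 370 to 480 in second-style libraries, against 108 and 140 in first-style ones, and in the pancreas, where all are second-style, it was 181 to 322. Snord97 alone separates the adrenal sums: without it they were 471 and 521 FPKM, against 401 to 572 FPKM, which overlap, while the heart sums without it were 156 to 173 FPKM, against 91.9 and 105 FPKM. The median C/D gene had 4.12 and 5.05 FPKM in the second-style adrenal libraries, against 3.89 to 4.83 FPKM in the first-style ones, which also overlap. For the 13 Scarna genes the adrenal sum was 2145 and 2700 FPKM in second-style libraries, against 2698 to 3650 FPKM in first-style ones. The heart sum was 926 to 1669 FPKM in the second style, against 757 and 816 FPKM in the first. Scarna sums thus lay on opposite sides in the 2 organs, with an overlap in the adrenal gland. The largest single Scarna value made up much of each sum. It was 571 to 1102 FPKM in second-style hearts, against 314 and 316 FPKM in first-style ones. In the adrenal gland it was 1080 and 1504 FPKM in the second style, against 633 to 1101 FPKM in the first. Scarna sums without the largest gene were not computed, so these sums are not shown to describe the whole class. The 34 H/ACA genes summed to 449 and 504 FPKM in the second-style adrenal libraries, against 582 to 901 FPKM in the first-style ones, and to 299 to 491 FPKM in the second-style hearts, against 201 and 206 FPKM in the first-style hearts. The lower adrenal sum goes with Snora74a: without it the sums were 376 and 437 FPKM, against 301 to 548 FPKM, which overlap, and the median H/ACA gene had 3.85 and 4.58 FPKM in the second style, against 2.75 to 4.19 FPKM in the first.

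**Figure D1:**
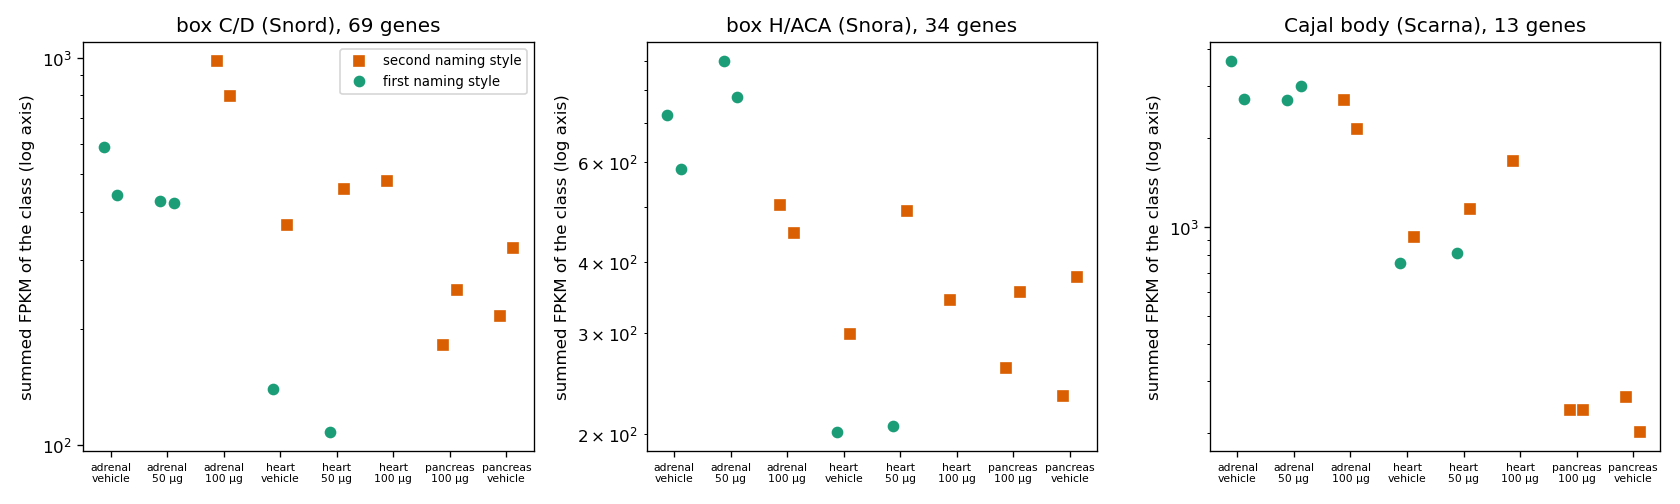
Summed FPKM (log axis) of the 69 box C/D, 34 box H/ACA and 13 Cajal body RNA genes, 1 point per library, by organ and dose; squares are second-style and circles first-style libraries. The C/D sums of the 100 µg adrenal libraries, 798 and 980 FPKM, lie above those of the other adrenal libraries only with Snord97 counted (without it 471 and 521 FPKM, against 401 to 572 FPKM), and the Scarna sums of the pancreas, 201 to 265 FPKM, lie below all others.

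Some members were held almost wholly by 1 organ. Snord113l3 had 51.4 to 127 FPKM over the 6 adrenal libraries, with a median of 80.2 FPKM, and means of 0.114 FPKM in the heart and 0.156 FPKM in the pancreas. Snord113l1 and Snord114-9, which lie within the same host gene LOC102555254, averaged 4.41 and 3.91 FPKM in the adrenal gland, and Snord113l1 was listed at 0 in all hearts and pancreases. In human and mouse, snoRNAs of the 113 and 114 families come from an imprinted gene cluster and have no known ribosomal target. Snora71e, within the non-coding gene Snhg11, averaged 18.2 FPKM in the adrenal gland and 0.562 FPKM in the pancreas, and was listed at 0 in all hearts.

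In the pancreas, Snord17 had 30.3 and 44.0 FPKM at 100 µg and 25.7 and 83.9 FPKM in vehicle, while its mean was 2.37 FPKM in the adrenal gland and 0.792 FPKM in the heart. Snora71c had 18.1 and 35.4 FPKM at 100 µg and 10.8 and 46.2 FPKM in vehicle pancreas, with means of 1.99 FPKM in the adrenal gland and 0.610 FPKM in the heart. The dose groups overlapped for both, and every pancreas library was above every library of the other organs. Snora53 and Snora73bl1 also had their highest mean in the pancreas, 67.7 and 93.5 FPKM, but their adrenal libraries reached 81.6 and 187 FPKM and overlapped with it. Higher in the heart were Snord64, with a mean of 4.07 FPKM against 1.53 FPKM in the adrenal gland and 0.133 FPKM in the pancreas, and Snord107, with 2.66 FPKM against 0.580 and 0.171 FPKM. Both belong, in human and mouse, to the imprinted region of the Prader-Willi syndrome.

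In the adrenal gland at 100 µg against vehicle, 9 members rose and 7 fell of 112 tested, at an adjusted p under 0.05 (limma on log2(FPKM + 1), adjusted over 12578 genes). That is 14.3% of the members, beside 9.78% of all genes tested; 1.8% of all genes rose and 7.98% fell. Over all genes 226 rose and 1004 fell. The median change was 0.07 over the members and -0.28 over all genes. Groups did not overlap, with 100 µg above vehicle, for 28 of the 112 members (13.5% of all genes) and with 100 µg below for 19 (47.5% of all genes). By class, 3 rose and 1 fell of 67 Snord genes, 4 rose and 2 fell of 32 Snora genes, and 2 rose and 4 fell of 13 Scarna genes. The median of all genes moved to -0.04 with median-ratio scaling and to -0.03 with protein-coding genes at equal sums, where 7 rose and 2 fell, and 9 rose and 3 fell.

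**Figure D2:**
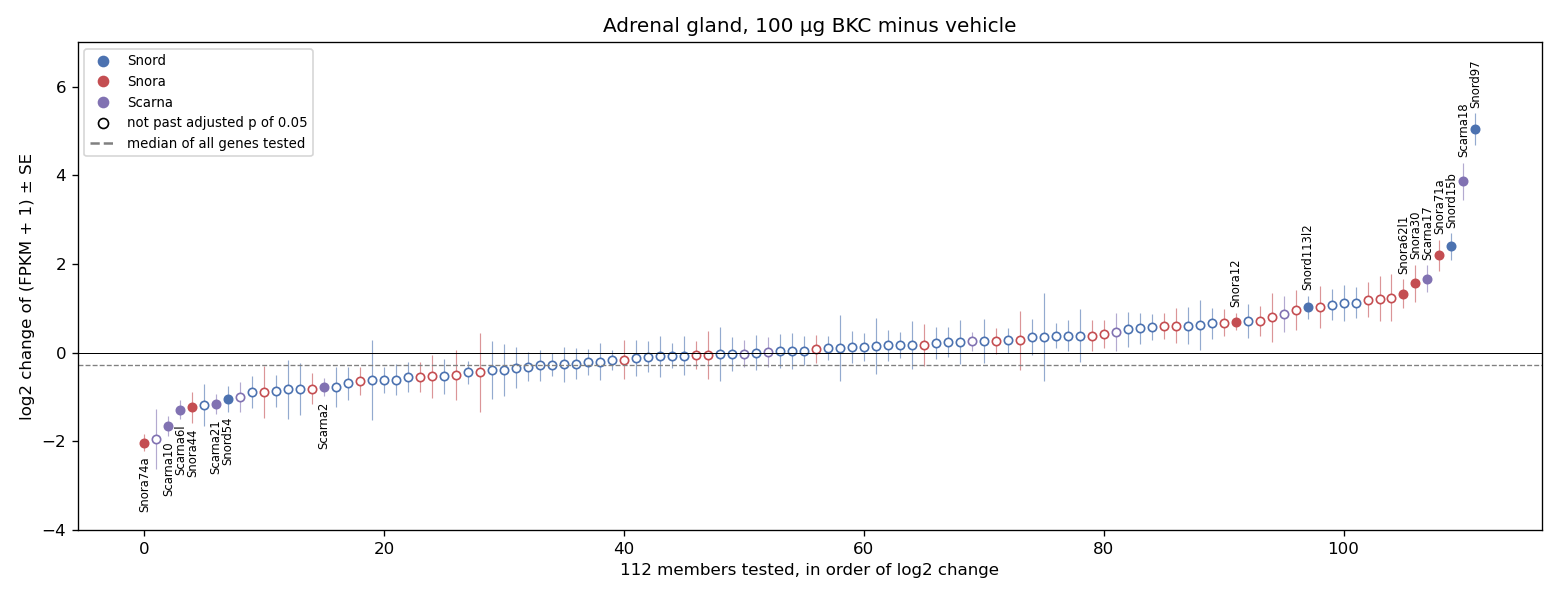
Fitted log2 change of FPKM + 1, 100 µg BKC minus vehicle, with its standard error, for the 112 members tested in the adrenal gland, ordered by size and coloured by class; filled points passed an adjusted p of 0.05. Snord97 stands at 5.04 and Scarna18 at 3.86, Snora74a at -2.03, and the dashed line marks the median of all genes at -0.28.

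Among the C/D genes, Snord97 had 16.2 and 7.08 FPKM in vehicle, 16.4 and 20.7 FPKM at 50 µg, and 459 and 327 FPKM at 100 µg. Both 100 µg libraries lay far above the other 4, and the 50 µg libraries lay just above vehicle. Its log2 change at 100 µg was 5.04 ± 0.36 (SE; limma adjusted p = 0.000721), which is 5.32 above the median of all genes. Snord15b, within the ribosomal protein gene Rps3, had 2.69 and 5.11 FPKM in vehicle, 12.9 and 8.22 FPKM at 50 µg, and 26.0 and 22.3 FPKM at 100 µg. The 3 groups did not overlap and lay in the order of the doses, but at 100 µg dose and naming style cannot be told apart. How many of all genes have 3 such groups was not counted. The 50 µg step alone did not pass the test (log2 change 1.25 ± 0.30, limma adjusted p = 0.162). At 100 µg the change was 2.40 ± 0.30 (limma adjusted p = 0.00242). Snord113l2, at 17.6 and 20.2 FPKM at 100 µg against 10.9 and 6.98 FPKM in vehicle, rose by a log2 change of 1.02, and Snord54, within Rps20, fell by 1.04 (limma adjusted p = 0.0326 and 0.0398).

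Of the H/ACA genes, Snora74a had the smallest adjusted p. It had 297 and 282 FPKM in vehicle, 353 and 434 FPKM at 50 µg, and 67.5 and 72.3 FPKM at 100 µg. The 3 doses did not overlap, and 50 µg lay above vehicle while 100 µg lay below. The log2 change at 100 µg was -2.03 ± 0.19 (limma adjusted p = 0.000357), and at 50 µg it was 0.43 ± 0.19 (limma adjusted p = 0.414). Snora71a, within LOC100911534, had 1.70 and 0.718 FPKM in vehicle, 2.53 and 4.72 FPKM at 50 µg, and 11.2 and 6.97 FPKM at 100 µg. Again the 3 groups did not overlap, and the log2 change at 100 µg was 2.20 ± 0.36 (limma adjusted p = 0.00732). Snora30, Snora62l1 and Snora12 rose by log2 changes of 1.57, 1.34 and 0.70, and Snora44 fell by 1.23 (limma adjusted p = 0.0446, 0.0274, 0.0447 and 0.045).

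The scaRNAs moved in both directions. Scarna18 had 0.626 and 1.72 FPKM in vehicle, 0.815 and 3.42 FPKM at 50 µg, and 29.9 and 29.3 FPKM at 100 µg. Scarna17 had 0.577 and 1.03 FPKM in vehicle, 0.156 and 0.398 FPKM at 50 µg, and 4.02 and 5.48 FPKM at 100 µg. Scarna17 averaged 0.540 FPKM over the 4 other adrenal libraries and passed the filter of 1 FPKM only through the 100 µg ones, so its call supports nothing on its own. For both the 100 µg libraries stood apart, and the log2 changes were 3.86 ± 0.42 and 1.67 ± 0.30 (limma adjusted p = 0.00245 and 0.0101). Scarna10 had 1042 and 666 FPKM in vehicle, 578 and 704 FPKM at 50 µg, and 269 and 258 FPKM at 100 µg, a log2 change of -1.66 ± 0.23 at 100 µg (limma adjusted p = 0.00352). Scarna6l had 58.3 and 46.6 FPKM in vehicle, 80.8 and 76.7 FPKM at 50 µg, and 21.2 and 20.5 FPKM at 100 µg, a change of -1.28 ± 0.21 (limma adjusted p = 0.00647). Scarna6, within the same gene Atg16l1 and near in name, had a larger estimate of -1.94 ± 0.68 that did not pass (limma adjusted p = 0.163), and its vehicle libraries lay far apart, at 565 and 232 FPKM. Reads of near-identical copies can be split between them, so values of such pairs are uncertain. Scarna21 and Scarna2 fell by 1.16 and 0.77 (limma adjusted p = 0.0123 and 0.034), and the most abundant scaRNA, Scarna7, did not pass, at 1504 and 1080 FPKM at 100 µg against 1101 and 770 FPKM in vehicle.

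With any 1 library of the 2 groups left out, Snord97, Snord15b, Snora71a, Snora74a, Scarna18, Scarna10, Scarna6l and Scarna21 still passed. Scarna17 lost its call without the first vehicle library, and Snora62l1 without that one or the first 100 µg library. Snora30 lost it without the second vehicle or the first 100 µg library. Scarna2 and Snord113l2 lost it without the second vehicle library or either 100 µg library, Snora44 without either vehicle or the second 100 µg library, and Snord54 without any of the 4. Snora12 was not refitted in this way.

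**Figure D3:**
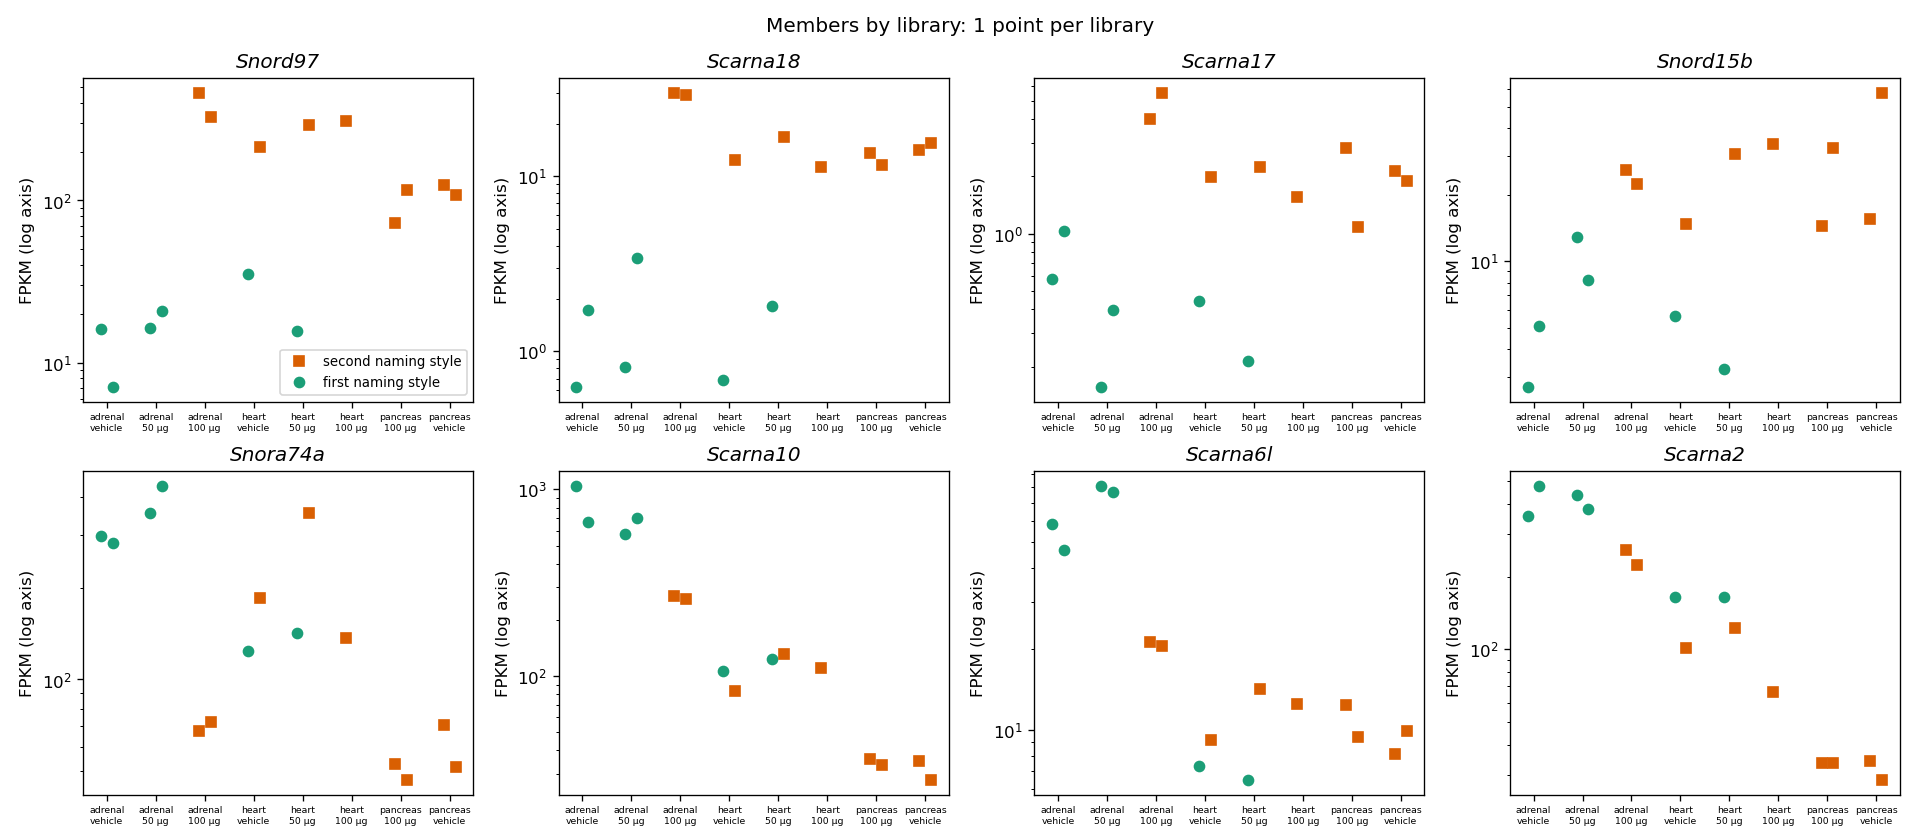
FPKM (log axis) of 8 members, 1 point per library, by organ and dose; squares are second-style and circles first-style libraries. In the top row (Snord97, Scarna18, Scarna17, Snord15b) every square lies above every circle; in the bottom row the 100 µg adrenal squares lie below the other adrenal points, while Snora74a in the heart reaches 186 and 355 FPKM in squares.

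At 50 µg against vehicle, no adrenal member was called. Of 112 tested, 0 passed in limma, beside 0.0318% of all genes. An unadjusted p under 0.05 was found for 1424 of 12578 genes, and for 25 of the members. The 5 with the smallest p were Snord15b and Snord53l1, with log2 changes of 1.25 and 1.42, and Snora44, Snord26 and Snord12c, with -1.23, -1.14 and -1.29. Snord53l1 had 1.84 and 4.07 FPKM at 50 µg, against 0.505 and 0.335 FPKM in vehicle, and the groups did not overlap. Of all genes, 2078 of 12578 had 50 µg above vehicle without overlap. When only the 2 groups compared were fitted, 5 members passed.

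Between 100 and 50 µg in the adrenal gland, 4 members rose and 7 fell of 112, which is 9.82%, beside 2.96% of all genes; 0.62% of all genes rose and 2.34% fell. This comparison shares its 100 µg libraries with the one against vehicle. Snord97 rose by a log2 change of 4.32 ± 0.36, Scarna18 by 3.43 ± 0.42, Scarna17 by 2.17 ± 0.30 and Snord26 by 1.38 ± 0.34, the last just past the threshold (limma adjusted p = 0.0472). Scarna17 averaged 0.540 FPKM over the vehicle and 50 µg libraries and reached the test only through the 100 µg ones. Its call, also with a library left out, thus supports nothing on its own. Snora74a changed by -2.47 ± 0.19 (limma adjusted p = 0.000138) and Scarna6l by -1.87 ± 0.21, and Snord17, Snord35b, Scarna10, Snord46 and Scarna21 fell by 1.72, 1.69, 1.27, 1.13 and 1.02. With either other scaling 5 members passed in place of 11. Snord97, Scarna18, Scarna17, Snora74a and Scarna6l passed with any 1 library left out. Scarna10 lost its call without the second 50 µg library, Snord35b and Snord26 without either 50 µg library, Snord46 without either 50 µg or the second 100 µg library, Snord17 without the first library of either dose, and Scarna21 without the first 50 µg or either 100 µg library; Snord26 also lost it without the first 100 µg library.

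In the heart, 50 µg against vehicle could be compared with 1 library of each naming style in each group. Of 77 members tested, 0 passed in limma and 2 had an unadjusted p under 0.05; of all 12099 genes, 0 passed (0.0%) and 45 had an unadjusted p under 0.05. The smallest p belonged to Snord27, with 1.95 and 3.67 FPKM at 50 µg against 5.58 and 6.70 FPKM in vehicle, a log2 change of -0.94 ± 0.28. Next to it lay Snord26, which shares the host LOC100912041, with -0.90 ± 0.30. Snora2b, Snord99 and Snora44 followed, at -0.75, 0.81 and 0.68.

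The same 4 hearts allow the second naming style to be set against the first with dose kept as a term, with 1 residual degree of freedom before moderation. Here 18 members were higher and 3 lower in the second style, of 77 tested, or 27.3%, beside 34.8% of all genes; 8.64% of all genes were higher and 26.1% lower. Snord97 had 214 and 292 FPKM in the second-style vehicle and 50 µg hearts, against 35.2 and 15.7 FPKM in the first-style ones. Its log2 difference was 3.35 ± 0.50 (limma adjusted p = 0.0409), and with either other scaling it did not pass. Scarna18 had 12.4 and 16.8 FPKM in the second style, against 0.684 and 1.81 FPKM in the first, a difference of 2.83 ± 0.12 (limma adjusted p = 0.0101). For both members the second-style hearts lay above the first-style ones without overlap, as for 2869 of 12099 genes. The spread used in these tests rests on 1 residual degree of freedom before moderation.

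Of the 21 members called, 8 passed the filter only through the second-style libraries where they are high, Snora30, Snord98, Scarna17 and Snora23 among them. Snora30, Snora54, Snord98, Snord107, Scarna17 and Snora23 were higher in the second style by 1.71, 1.27, 1.26, 1.24, 1.23 and 1.11, and Scarna7 by 0.98. Lower were Snora5c, Snora44 and Scarna2, by differences of -0.92, -0.57 and -0.57, none of which passed with protein-coding genes at equal sums, where 28 members were higher and 0 lower. That scaling moved the median of all genes to 0.14, against -0.13 without it. Snord15b had 14.8 and 30.5 FPKM in second-style hearts, against 5.65 and 3.23 FPKM in first-style ones, without passing (difference 2.07 ± 0.53, limma adjusted p = 0.0916). Snora74a, which fell in the adrenal gland at 100 µg, had 186 and 355 FPKM in the second style, against 124 and 142 FPKM in the first, a difference of 0.94 ± 0.22 (limma adjusted p = 0.0531). The lone 100 µg heart, with its atrial markers, had 307 FPKM of Snord97, 11.3 FPKM of Scarna18 and 34.0 FPKM of Snord15b. These values lay near but outside those of the other second-style hearts, above them for Snord97 and Snord15b and below for Scarna18. Without this heart 20 members passed.

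The adrenal comparison of 100 µg with vehicle and the heart comparison of naming styles share no library. Of the 9 members that rose in the adrenal gland and the 18 that were higher in second-style hearts, 5 were the same: Snord97, Scarna18, Scarna17, Snora30 and Snora12, or 55.6% of the first list and 27.8% of the second. Scarna17 reached the test in both organs, and Snora30 in the heart, only through the libraries where they are high. Scarna2 and Snora44 were lower in both, 28.6% of 7 and 66.7% of 3, and 0 were called in opposite directions. For Snora44 the heart libraries of the 2 styles overlapped. Shared and opposite calls were not counted over all genes, so these counts are not shown to be particular to the members. Over the 75 members tested in both, Pearson's r of the log2 changes was 0.72 and Spearman's rho 0.49, with the same sign for 61.3%; over all 10774 genes tested in both r was 0.30, rho 0.23 and the same sign 63.5%. Members of 1 host are not independent points, and all points share the same libraries. The share of the adrenal change that goes with naming style and not with dose was not tested and, in these libraries, cannot be told apart.

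**Figure D4:**
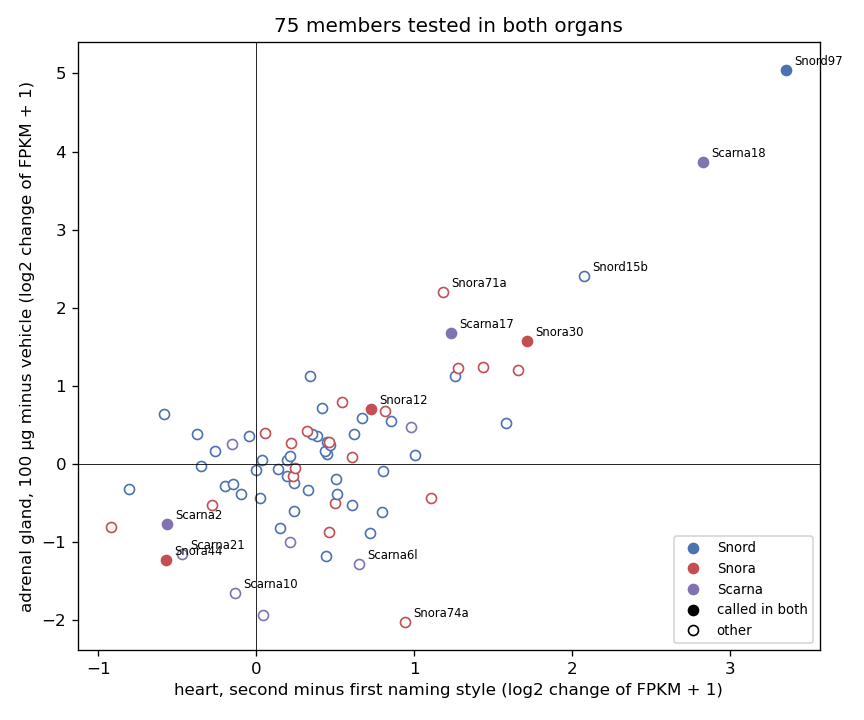
Log2 change of FPKM + 1 in the adrenal gland (100 µg minus vehicle, vertical) and in the heart (second minus first naming style, horizontal) for the 75 members tested in both; filled points were called in both. Snord97 and Scarna18 lie at the upper right, with 5.04 and 3.86 in the adrenal gland and 3.35 and 2.83 in the heart, and Snora74a lies below the zero line on the right, with -2.03 and 0.94.

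Across all 3 organs, 5 of the 101 members with a mean of 1 FPKM or more over the 15 libraries had every second-style library above every first-style one, against 11 of 12543 genes (0.0877%). The 5 were Snord97, Scarna18, Scarna17, Snord15b and Snora80l1, and the last was named after its values were seen. Scarna17 and Snora80l1 had at most 1.03 and 0.755 FPKM in the first style and reached the mean of 1 FPKM through the second. Snord97 ran from 72.6 to 459 FPKM over the 9 second-style libraries, with 100 µg, 50 µg and vehicle animals among them, against 7.08 to 35.2 FPKM over the 6 first-style ones. Scarna18 ran from 11.3 to 29.9 FPKM against 0.626 to 3.42 FPKM. No member had every second-style library below every first-style one, which 3.65% of genes did. The pancreas has no first-style library, so organ and style are mixed in this count.

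In the pancreas at 100 µg against vehicle, 1 of 54 members tested was called (1.85%, beside 0.392% of all genes). An unadjusted p under 0.05 was found for 5 members, beside 124 of 5610 genes. Snord69, within the nucleolar GTPase gene Gnl3, had 2.66 and 1.11 FPKM at 100 µg, against 0.232 and 0.318 FPKM in vehicle. The groups did not overlap, both were low, and the log2 change was 1.12 ± 0.28 (limma adjusted p = 0.0155), which passed under 1 of 8 alternatives. Leaving out either vehicle library or the second 100 µg library ended the call, and without the first 100 µg library Snord69 fell below the filter and was not tested. Its mean was 1.08 FPKM over the 4 libraries and 0.275 FPKM in vehicle, so it reached the test only through the group where it is high, and the call is given as a description. Snord13, known as U13 and needed in human for acetylation of the small ribosomal RNA, had 0.00130 and 0.585 FPKM at 100 µg, against 0.627 and 2.99 FPKM in vehicle, a change of -1.02 ± 0.28 that did not pass (limma adjusted p = 0.0737). Snora5c, Snora84 and Snora22c, the others with the smallest p, had changes of 0.84, -0.66 and -0.66. The members that rose most in the adrenal gland did not pass here. Snord97 had 72.6 and 116 FPKM at 100 µg, against 124 and 108 FPKM in vehicle, a change of -0.33 ± 0.35, and Scarna18 had 13.6 and 11.6 FPKM, against 14.2 and 15.5 FPKM, a change of -0.22 ± 0.37.

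The 100 µg change differed between the adrenal gland and the pancreas for 8 of 100 members tested, or 8%, beside 2.22% of all genes, 0.865% above and 1.36% below (limma, interaction term over 8 libraries). The adrenal change exceeded the pancreas change for Snord97, Scarna18, Snora30 and Scarna17, by 5.37, 4.08, 2.08 and 1.77 on the log2 scale. It was below the pancreas change for Scarna10, Snora74a, Scarna6l and Snord54, with differences of -1.80, -1.75, -1.53 and -1.44. In the pancreas alone 54 members reached the test, so many of the 100 entered this fit through their adrenal libraries. Snord54 was among these, with a pancreas mean under 1 FPKM. In the pancreas both groups had the second naming style, and in the adrenal gland dose and style went together. Leaving out either pancreas vehicle library left 1 call, and leaving out the first adrenal vehicle library left 3. Without the second adrenal vehicle library there were 15 calls, without the first 100 µg adrenal library 16, and without the second 100 µg library of the adrenal gland or of the pancreas 19.

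Of the 116 members, 112 lie inside the span of a longer gene in RefSeq's annotation, in 80 distinct host genes, and 56 share their host with another member. For 107 members tested in the adrenal gland at 100 µg the host was tested too. Of the 15 called members among them, 10 had the same sign of change as the host, the host was itself called for 4, and 8 of 75 hosts were called (10.7%, beside 9.78% of all genes). Eif4g2, a translation factor gene that holds Snord97, had 118 and 105 FPKM at 100 µg, against 97.4 and 82.4 FPKM in vehicle, a change of 0.31 ± 0.21 (limma adjusted p = 0.334). Rps3 fell where Snord15b rose: it had 340 and 307 FPKM, against 652 and 511 FPKM, a change of -0.83 ± 0.19 (limma adjusted p = 0.0225). Matr3, around Snora74a, did not pass (-0.26 ± 0.24, limma adjusted p = 0.488), and Rpsa, around Snora62l1, fell by 0.72 (limma adjusted p = 0.0325).

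LOC120098116, an uncharacterised gene that spans both Scarna17 and Scarna18, moved with them. It had 2.85 and 3.72 FPKM in vehicle, 3.49 and 3.29 FPKM at 50 µg, and 11.3 and 9.73 FPKM at 100 µg in the adrenal gland, a change of 1.43 ± 0.28 at 100 µg (limma adjusted p = 0.013). In the heart it had 8.51 and 8.95 FPKM in the second style, against 1.56 and 2.85 FPKM in the first, a difference of 1.63 ± 0.16 (limma adjusted p = 0.0102). The 100 µg heart had 4.03 FPKM and the pancreas 4.01 to 5.59 FPKM, between the levels of the 2 styles in the other organs. Reads of the scaRNAs may be counted in this gene and the reverse, since how the counting treated overlaps is not stated, so the 3 are not independent. In second-style hearts Eif4g2 was lower by -0.36 and Rps3 by -0.87 (limma adjusted p = 0.0219 and 0.0108), while Snord97 was higher. Host genes were not followed under the other scalings, and with either of these Snord97 did not pass in the heart. Over the 72 members with a tested host there, 4 of 18 called members had the direction of their host. The host was itself called for 11 of the 18, and 29 of 55 hosts were called (52.7%, beside 34.8% of all genes). Of all genes, 8.64% were higher and 26.1% lower in that comparison. In the adrenal gland r between member and host changes was 0.26 over 107 members, and in the heart 0.27 over 72.

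**Figure D5:**
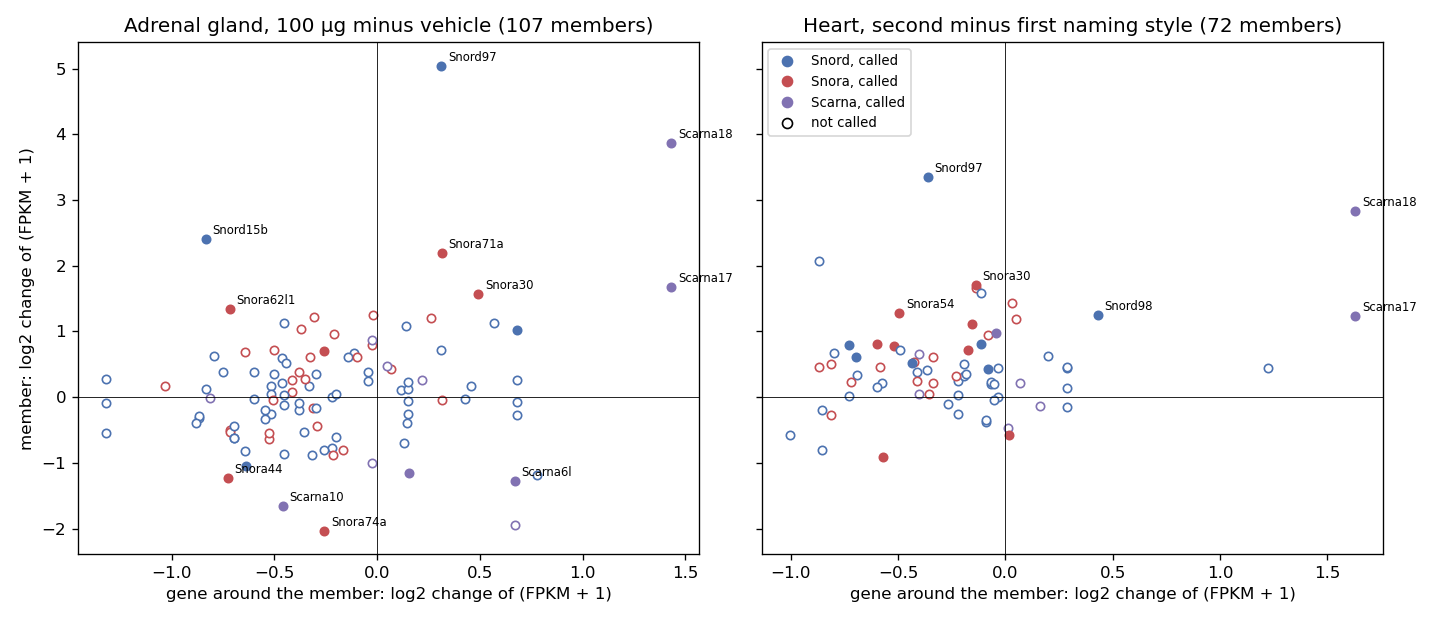
Log2 change of FPKM + 1 of each member (vertical) against that of the gene that spans it (horizontal), in the adrenal gland at 100 µg minus vehicle (107 members) and between heart naming styles, second minus first (72 members); filled points are called members. Scarna17 and Scarna18 share 1 host at 1.43 in the adrenal gland and 1.63 in the heart. Snord97 lies high in both, while its host Eif4g2 did not pass in the adrenal gland and was lower in the heart, at -0.36.

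The promoters of these 3 hosts are shown because the members inside them separated the naming styles: 2 of them move together inside 1 host, and the other 2 lie in hosts that did not rise. Each run is 250 bases before to 50 bases after the gene start, 5′ to 3′ on the gene's own strand, from RefSeq on GRCr8; capitals mark the CCAAT box (CCAAT or ATTGG) and the GC box (GGGCGG or CCGCCC), and the TATA box (TATAAA or TTTATA) was also searched, on both strands and with overlapping matches counted.
LOC120098116, chr18:70619990-70620289, minus strand: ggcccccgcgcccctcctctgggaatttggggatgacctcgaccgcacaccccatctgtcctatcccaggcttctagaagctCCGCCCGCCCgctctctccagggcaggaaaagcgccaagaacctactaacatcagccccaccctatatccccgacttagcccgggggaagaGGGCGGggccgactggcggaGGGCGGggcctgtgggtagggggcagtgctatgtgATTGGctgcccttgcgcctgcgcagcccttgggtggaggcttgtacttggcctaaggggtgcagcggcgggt
Eif4g2, chr1:174628203-174628502, minus strand: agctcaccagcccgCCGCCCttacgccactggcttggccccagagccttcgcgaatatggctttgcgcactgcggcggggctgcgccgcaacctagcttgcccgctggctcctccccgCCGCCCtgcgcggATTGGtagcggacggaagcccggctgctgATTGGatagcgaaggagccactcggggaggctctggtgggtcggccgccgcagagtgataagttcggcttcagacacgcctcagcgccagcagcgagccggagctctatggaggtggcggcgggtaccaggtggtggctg
Rps3, chr1:163195727-163196026, minus strand: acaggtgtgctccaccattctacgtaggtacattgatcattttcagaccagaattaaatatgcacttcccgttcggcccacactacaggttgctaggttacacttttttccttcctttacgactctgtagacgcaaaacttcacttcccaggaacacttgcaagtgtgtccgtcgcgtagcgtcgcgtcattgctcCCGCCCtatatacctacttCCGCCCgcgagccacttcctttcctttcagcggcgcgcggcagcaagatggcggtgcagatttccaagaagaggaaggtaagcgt
The LOC120098116 promoter held 1 CCAAT box and 4 GC boxes, of which a pair overlap, the Eif4g2 promoter 2 and 2, and the Rps3 promoter 0 and 2, and none of the 3 held a TATA box. Of 27457 promoters of this length, 37.7% held a CCAAT box, 34.9% a GC box and 14.3% a TATA box. Of the 70 host promoters found among 80 hosts, 37.1%, 68.6% and 14.3% did. These are matches of letters only.

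Proteins that build, place and trim these RNAs were compared as lists. In the adrenal gland at 100 µg against vehicle, 0 of 4 box C/D core proteins and 0 of 12 assembly factors were called in limma (0 and 5 at an unadjusted p under 0.05), with median changes of -0.05 and -0.32 beside -0.28 over all genes. Of 3 H/ACA core proteins tested, Nhp2 fell, with 22.7 and 27.0 FPKM at 100 µg against 44.9 and 49.1 FPKM in vehicle, a change of -0.89 ± 0.21 (limma adjusted p = 0.0266). Gemin2, of the SMN complex, fell by 1.13, 1 of 4 Cajal body proteins, and Toe1, an exonuclease that trims small nuclear RNA ends, fell by 1.19, 1 of 8 processing factors. Over all these protein and host lists, 3 of 45 genes tested fell (6.67%), beside 7.98% of all genes. Of 12 RNA polymerase I and ribosome biogenesis factors, 0 were called and 2 had an unadjusted p under 0.05. At 50 µg in the adrenal gland or heart and at 100 µg in the pancreas, 0 genes of these lists were called in limma, with 6 of 45, 0 of 43 and 0 of 26 at an unadjusted p under 0.05. Of all genes, 1424 of 12578, 45 of 12099 and 124 of 5610 were under it.

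Between heart naming styles, more of the same genes were lower in the second style. They were Fbl, the C/D methyltransferase, at a difference of -0.58, Dkc1, the H/ACA pseudouridine synthase, at -0.85, Nhp2 at -0.57, Gemin2 at -0.36, Exosc10, and 5 of 10 assembly factors tested (Ruvbl1, Ruvbl2, Pih1d1, Znhit6 and Tcof1). Among ribosome biogenesis factors Bop1, Rrp9 and Ubtf were lower and Npm1 was higher, 4 of 12. Over all these lists 13 of 43 genes tested were lower (30.2%), beside 26.1% of all genes.

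Other RNAs that end without a poly(A) tail also varied between the libraries. Rn7sl1, the RNA of the signal recognition particle, held 27.0% to 35.9% of summed FPKM in the vehicle and 50 µg adrenal libraries, and 10.3% and 9.50% in the 100 µg ones. Its fall at 100 µg against vehicle was -2.40 ± 0.25 on the log2 scale (limma adjusted p = 0.000601). Rpph1, the RNase P RNA, held 8.69% to 26.0% of summed FPKM in the vehicle and 50 µg adrenal libraries, and 3.75% and 3.82% at 100 µg, without passing (limma adjusted p = 0.136). Terc, the telomerase RNA and itself of the H/ACA kind, had 4.80 and 4.07 FPKM at 100 µg, against 20.2 and 9.00 FPKM in vehicle, and did not pass (limma adjusted p = 0.066); against 50 µg it fell, by 2.06 (limma adjusted p = 0.0443). Between heart styles, Rn7sl1 and Rpph1 were lower in the second style, with log2 differences of -0.66 and -0.57 (limma adjusted p = 0.0484 and 0.0359). Of all genes, 26.1% were lower there. Terc did not pass in that comparison (-0.06, limma adjusted p = 0.708). In the adrenal gland at 100 µg, dose and naming style cannot be told apart for these RNAs either. Genes annotated as small nuclear RNA, the kind of RNA that scaRNAs modify, exist in many near copies whose counts are uncertain. They had a median log2 change of 0.75 over 74 tested at 100 µg in the adrenal gland, where 9 rose and 0 fell. That is 12.2%, beside 9.78% of all genes. At 50 µg, where vehicle and treated adrenal libraries all have the first style, the median was 0.70. There 1 rose and 0 fell (1.35%, beside 0.0318% of all genes). Between heart styles the median was 0.74, where 35 were higher and 1 lower, or 48.6%, beside 34.8% of all genes. In the pancreas at 100 µg their median was -0.25 over 45 tested. The part of these library differences in the members' changes was not tested.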

How the data were processed

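Gene tables of 3 organs were used as the authors deposited them. Their values were taken as FPKM, normalized by the authors for gene length and library, from their scale and the tools named; the labels do not name the unit. Per the submitters' processing notes, edgeR 3.40.2, HISAT2 2.1.0 and StringTie 2.1.3b were used, with no step assigned to any of them; the build and the treatment of strand and of overlapping genes are not given in the sources used here. Counts and depth are unknown, so no counting interval is given.

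All 16 sample columns were matched to labels by name; 0 were unmatched. Groups, doses and naming styles come from the labels. Genes averaging 1 FPKM or more across the fitted libraries were tested with limma 3.58.1 (R 4.3.3; mean-variance trend, robust moderation) on log2(FPKM + 1), which understates changes of low genes. P-values were adjusted over all genes tested by Benjamini-Hochberg and called under 0.05; the fit was tested on simulated data. A heart or adrenal fit takes all libraries of its organ. Tables and figures were made with Python 3.11.15. Nothing says that libraries of a group are separate rats beyond their labels, and libraries of different organs may share a rat, so p-values measure the spread between these libraries.

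Members and lists were chosen with earlier results of these data known. Named were, per comparison, up to 8 called members with the largest rise and 8 with the largest fall among groups that did not overlap, the 5 smallest p where under 5 were called, the 4 most abundant per class, threshold neighbours, host genes and called list genes. Of 15 names of non-coding host genes 3 were in the tables, of which 0 of 2 tested in the adrenal gland at 100 µg were called, and of 8 names of other RNAs without a tail, 3. Host genes and promoters come from RefSeq (GRCr8), where all 116 members matched; strand of the host is not used. Alternatives were another pseudocount of 0.1, no filter, other scalings, a replicate block, only the groups compared, and each library left out.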

Additional observations from a re-analysis of the deposited data

Results flagged for a closer look

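The change at 100 µg against vehicle differed between the adrenal gland and the pancreas in an interaction test (limma) for 8 members. The adrenal minus pancreas difference on the log2 scale was 5.37 for Snord97, 4.08 for Scarna18, 2.08 for Snora30 and 1.77 for Scarna17. It was -1.44 for Snord54, -1.53 for Scarna6l, -1.75 for Snora74a and -1.80 for Scarna10. Snord54 was too low in the pancreas to be tested there alone. Scarna18 passed under all 12 alternatives that kept the filter on low values, Snord97 under 10 of 12, and Snord54 and Scarna6l under 5 of 12. Dose and naming style cannot be told apart in the adrenal gland, and all pancreas libraries have the second style.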

How the results depend on the processing

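Of 585 log2 changes of named members recomputed under the alternatives, 0 reversed. Host and list genes were not followed under the alternatives. With no filter on low values, where only genes at 0 in every library were dropped, no member was called: 0 for adrenal 100 µg against vehicle (16 with the filter), 0 for 100 against 50 µg (11), 0 for heart styles (21), 0 for pancreas (1) and 0 for the interaction (8); more genes were then tested. Median-ratio scaling gave 9 adrenal calls against vehicle, 5 against 50 µg, 0 in the pancreas and 2 for the interaction. Protein-coding genes at equal sums gave 5 against 50 µg, 0 in the pancreas and 4 for the interaction. Fitting only the 2 groups gave 5 calls at 50 µg in the adrenal gland, against 0. A pseudocount of 0.1 gave 0 in the pancreas. All 6 heart columns, the duplicated one included, gave 0 calls between styles. The cause was not tested for these.

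Leaving out each replicate in turn gave 11 to 17 calls for adrenal 100 µg against vehicle, 0 to 2 for 50 µg, 8 to 16 for 100 against 50 µg, 0 each time for heart 50 µg, 0 to 2 for pancreas and 1 to 19 for the interaction; a lone library left in a group is taken to vary like the others. For heart styles it leaves no residual degrees of freedom and was not run. Of the members called at 100 µg against vehicle, Snord97, Scarna18, Snord15b, Snora71a, Snora74a and Scarna10 passed all 9 alternatives that kept the filter; Scarna2 passed 3, and Snora44 and Snord54 passed 2.

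Same-numbered samples of an organ share only a number in the labels, and in the heart the naming style too. With the replicate block, calls were 11 for adrenal 100 µg against vehicle, 0 for 50 µg, 6 for 100 against 50 µg, 0 for heart 50 µg, 2 for pancreas and 11 for the interaction; it was the only alternative of 8 under which Snord69 passed. Replicate differences correlated at -0.145, -0.104 and 0.143 between adrenal groups, 0.423 in the pancreas and 0.743 in the heart, where the number follows the naming style. The heart comparison without the 100 µg library, chosen after seeing the data, gave 20 calls. A limit of 0.5 FPKM would give 126 members and one of 5 FPKM 54. Without read counts, what depth limits is unknown.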
